A study of Mus musculus with 22 samples.

Results

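Expression of 9 genes of transforming growth factor beta (TGF-beta) signaling and fibroblast activation was examined in the kidneys of 22 mice. The genes were Tgfb1, Tgfb2, Tgfbr1, Tgfbi, Fn1, Fbn1, Postn, Pdgfb, and Pdgfrb, taken by symbol from the 32858 genes in the count table, and all 9 were among the 17131 genes with enough counts to be tested. Each library came from the kidney of 1 mouse: 5 vehicle-treated mice, 6 given KW6002, 5 given cisplatin, and 6 given both agents (cotreated). The animals were male C57Bl6/J mice of 8 to 10 weeks. Cisplatin, a platinum drug with known kidney toxicity, was injected 6 times at 3 mg/kg per day. KW6002 (istradefylline), an antagonist of the adenosine receptor encoded by Adora2a, was given at 3 mg/kg per day from day -5 to day 7. The vehicle was the DMSO, cremophor, and saline carrier of KW6002. Kidneys of cisplatin-treated mice were taken 72 hours after the last cisplatin injection.

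TGF-beta is secreted in a latent form, is released at the cell surface, and signals through a pair of receptor kinases to SMAD transcription factors. PDGF-B, a growth factor of endothelial cells and platelets, acts on the receptor PDGFR-beta of pericytes, mesangial cells, and fibroblasts. In injured kidney these pathways are known for driving fibroblasts and pericytes to divide and to lay down extracellular matrix. The comparisons ask how cisplatin moved these genes and how KW6002 altered that response.

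Tgfb1 (ENSMUSG00000002603, chr7:25687002-25705077, + strand) and Tgfb2 (ENSMUSG00000039239, chr1:186622792-186705989, - strand) encode TGF-beta ligands. Tgfbr1 (ENSMUSG00000007613, chr4:47353222-47414931, + strand) encodes the type I receptor kinase. Tgfbi (ENSMUSG00000035493, chr13:56609523-56639562, + strand), Fn1 (ENSMUSG00000026193, chr1:71585520-71653200, - strand), Fbn1 (ENSMUSG00000027204, chr2:125300594-125507993, - strand), and Postn (ENSMUSG00000027750, chr3:54361109-54391037, + strand) encode secreted matrix proteins. Pdgfb (ENSMUSG00000000489, chr15:79995874-80014977, - strand) and Pdgfrb encode a PDGF ligand and its receptor. Positions refer to GRCm38 (mm10) and cover whole protein-coding genes. Tgfb2, Fn1, Fbn1, and Pdgfb each overlap an annotated gene on the other strand. The libraries were stranded, but the strand setting of the counting is not stated, so reads from those overlaps cannot be assigned with certainty.

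Promoters are shown for 4 genes that rose together in cisplatin-treated kidneys and were lower in cotreated kidneys. RefSeq promoter sequences of GRCm38.p6 were at hand for 6 of the 9 genes, 8 sequences in all, each running from 250 bases before to 50 bases after the annotated start. The 250 bases before the start are printed 5′ to 3′ on the gene's strand, with CAGACA (the CAGA box, a SMAD-binding element) in capitals.
Tgfb1 (chr7:25686752-25687001, + strand): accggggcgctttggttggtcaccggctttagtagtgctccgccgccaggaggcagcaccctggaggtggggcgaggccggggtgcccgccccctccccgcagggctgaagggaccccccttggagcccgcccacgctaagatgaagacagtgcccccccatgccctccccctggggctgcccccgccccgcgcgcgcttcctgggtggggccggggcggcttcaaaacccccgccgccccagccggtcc
Tgfb2 (chr1:186705990-186706239, - strand): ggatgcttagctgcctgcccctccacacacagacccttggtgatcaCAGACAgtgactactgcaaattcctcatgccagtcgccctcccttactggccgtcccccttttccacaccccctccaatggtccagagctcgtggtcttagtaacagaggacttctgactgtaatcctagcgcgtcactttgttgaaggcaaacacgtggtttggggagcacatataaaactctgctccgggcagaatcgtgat
Tgfbi (chr13:56609336-56609585, + strand): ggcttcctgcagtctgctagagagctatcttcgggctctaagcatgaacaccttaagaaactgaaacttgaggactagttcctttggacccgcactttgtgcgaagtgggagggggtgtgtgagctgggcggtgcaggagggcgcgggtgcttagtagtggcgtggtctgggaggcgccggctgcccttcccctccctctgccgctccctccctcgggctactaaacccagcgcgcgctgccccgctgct
Fbn1 (chr2:125506439-125506688, - strand): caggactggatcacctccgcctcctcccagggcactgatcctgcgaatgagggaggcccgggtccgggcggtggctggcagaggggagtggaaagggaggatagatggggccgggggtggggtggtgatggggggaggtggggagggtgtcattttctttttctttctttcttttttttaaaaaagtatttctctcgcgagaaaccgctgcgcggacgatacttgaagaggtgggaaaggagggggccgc
CAGACA was searched on both strands and was found in 2 of the 8 sequences. It lay 204 bases before the start of Tgfb2 and 203 bases before the more downstream of the 2 annotated Tgfbr1 starts (not printed). That Tgfbr1 start, at chr4:47386216, lies well inside the gene. The sequence at the outer Tgfbr1 start, chr4:47353222, held no CAGACA. The motif was in 21.04% of all 32851 RefSeq promoters of the same length. The AP-1 site, searched as TGANTCA on both strands, was in none of the 8 sequences and in 7.81% of all promoters. The Fbn1 and Tgfbi starts used by RefSeq also lie inside the GENCODE genes rather than at their outer ends. The printed Fbn1 stretch therefore lies within its gene, as does the 3′ end of the Tgfbi stretch.

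Levels are given as CPM, a gene's count relative to its library's total, scaled by trimmed mean of M values (TMM), and comparisons as log2 fold changes ± SE from edgeR's quasi-likelihood test, with p-values adjusted by Benjamini-Hochberg over the 17131 genes. A gene passed the test at an adjusted p below 0.05. It was called where the adjusted p was below 0.01 and the log2 fold change was beyond 1, which are the thresholds of the study. Library totals ran from 26471762 to 40510754 counts, and the least abundant gene, Tgfb2, had between 43 and 141 counts per library. Mice numbered in the 300s made up 3 of the 5 vehicle and 3 of the 6 KW6002 libraries, whereas both cisplatin groups came only from the 500s.

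Whole-kidney RNA is a mixture, and its composition differed between the groups (shown in the plot of summed markers). The 6 proximal tubule markers summed to 14030 to 15070 CPM in vehicle libraries, 1427 to 2651 in cisplatin libraries, and 5318 to 8209 in cotreated libraries. All 6 fell with cisplatin, where 35.9% of all genes tested fell. The 5 fibroblast markers (Pdgfra, Dcn, Lum, Col1a1, and Col3a1) summed to 129 to 324 CPM with vehicle, 577 to 743 with cisplatin, and 253 to 489 with both agents. Of these 5 markers, 4 rose with cisplatin, 4 fell when KW6002 was added, and Lum did not pass the first of these tests. Over all genes tested, 34.6% were higher with cisplatin and 27.2% were lower when KW6002 was added. The 4 red blood cell markers summed to 60.0 to 362 CPM with vehicle and to 0.0267 to 0.198 with cisplatin. No marker of these lists was at 0 throughout a group. In bulk kidney, fewer cells of a type and less RNA per cell cannot be told apart, and the part of these shifts in the results for the 9 genes was not tested.

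**Figure D1:**
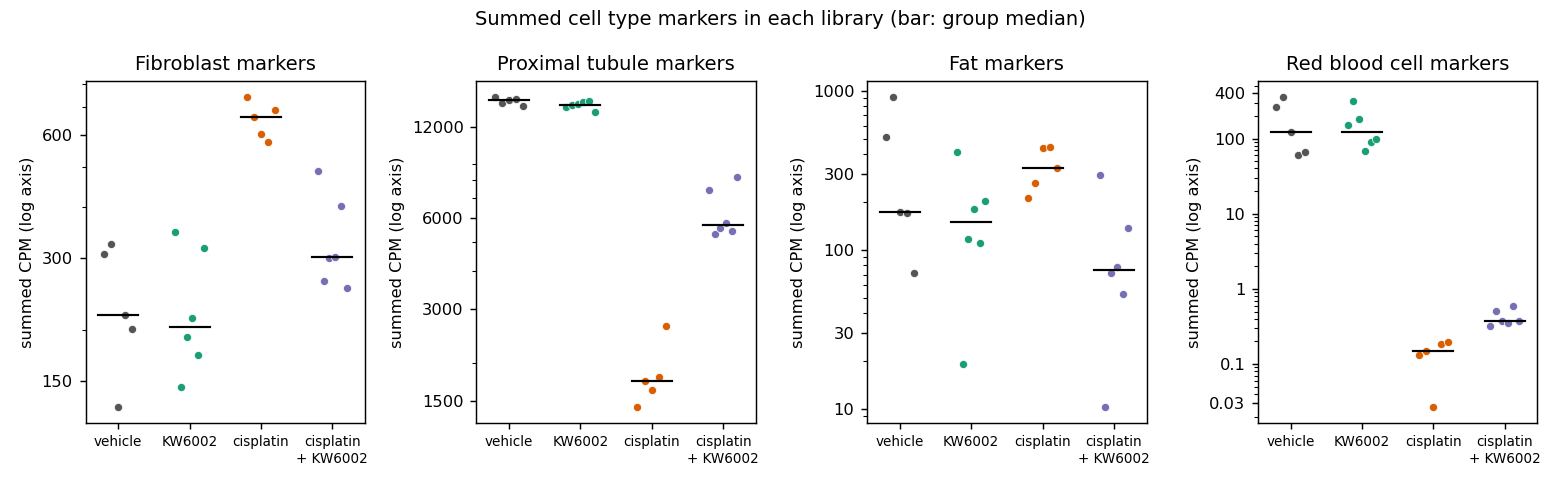
Summed CPM (log axes) of fibroblast, proximal tubule, fat, and red blood cell markers in each library, by treatment group, with bars at group medians. Fibroblast markers were between 577 and 743 CPM in the 5 cisplatin libraries, above all vehicle libraries, while fat markers ranged from 10.3 to 920.5 CPM over all libraries.

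Fat cell genes varied widely within groups. The mean of 7 fat cell genes (Adipoq, Plin1, Cidec, Lep, Retn, Cfd, and Thrsp) was 5.76 and 6.48 log2 CPM in vehicle replicates 1 and 2 and 5.00 in KW6002 replicate 1. The highest value among the other 19 libraries was 4.75. The lowest value, -0.53, belonged to cotreated replicate 2. Summed fat markers ranged from 72.1 to 920.5 CPM with vehicle, 19.3 to 414 with KW6002, 214 to 446 with cisplatin, and 10.3 to 295 with both agents. Of the 7 genes, 2 fell with cisplatin, where 35.9% of all genes tested fell. In cotreated against cisplatin kidneys 4 were lower, where 27.2% of all genes were lower. For Tgfb2, Fbn1, Fn1, and Postn, comparisons that changed with the marker mean as a covariate or without those 3 libraries are given under both settings. None of the 3 libraries is in a cisplatin group.

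Cisplatin raised 6 of the 9 genes and lowered 1. Tgfb1, Tgfb2, Tgfbr1, Tgfbi, Fbn1, and Pdgfrb rose, Pdgfb fell, and Fn1 and Postn did not pass the test. Over all genes tested, 34.6% were higher and 35.9% lower, so a change as such was common. Tgfb1, Tgfbi, Fbn1, and Pdgfrb were called, against a background of 24.1%. The median log2 fold change was 0.63 over the 9 genes and -0.01 over all genes. The cisplatin and vehicle ranges did not overlap for the 7 genes that passed. The share of all genes with separate ranges was not counted.

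**Figure D2:**
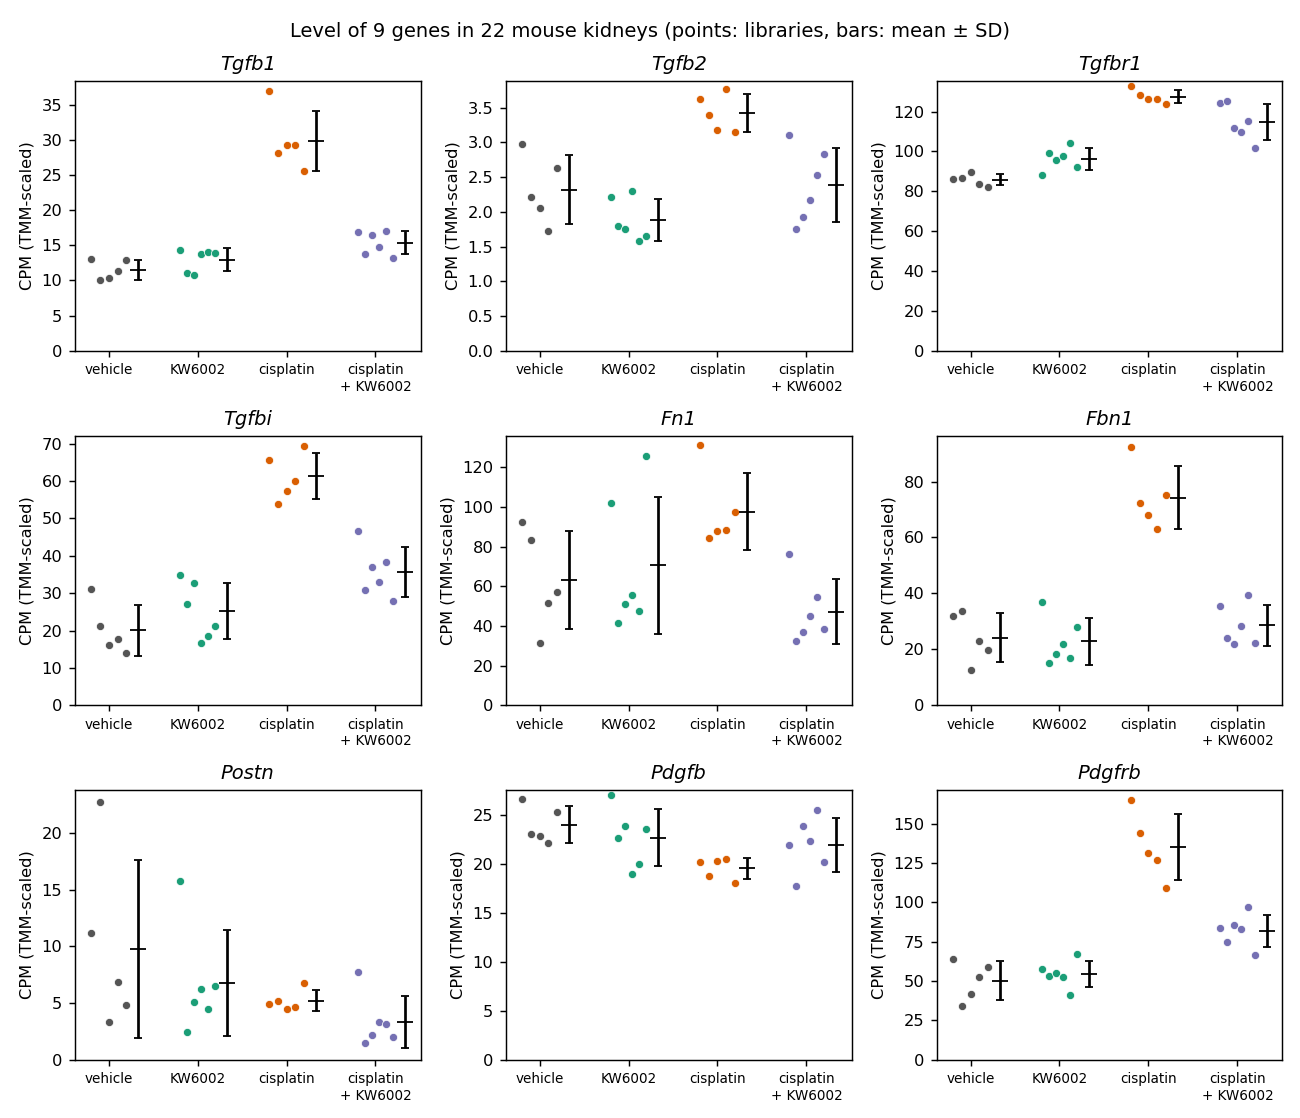
TMM-scaled CPM of each gene in each library (points, linear axes from 0), with the group mean and SD beside them. Cisplatin libraries lie above all vehicle libraries for Tgfb1, Tgfb2, Tgfbr1, Tgfbi, Fbn1, and Pdgfrb, and below them for Pdgfb, while Fn1 and Postn spread widely within the vehicle and KW6002 groups.

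KW6002 given with cisplatin lowered 7 of the 9 genes relative to cisplatin alone and raised none. Tgfb1, Tgfb2, Tgfbr1, Tgfbi, Fn1, Fbn1, and Pdgfrb fell, and Postn and Pdgfb did not pass. Of all genes tested, 27.2% were lower and 28.6% higher in this comparison. Fn1 and Fbn1 were called, against 10.3% of all genes. The median log2 fold change of the 9 genes was -0.72, compared with 0.005 over all genes. This comparison and the preceding one share the 5 cisplatin libraries, so opposite signs in them are not independent.

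Without cisplatin, KW6002 moved none of the 9 genes past the threshold. Of all genes tested, 0.0175% were higher and 0% lower at an adjusted p below 0.05, and 0% were called. Log2 fold changes ran from -0.52 for Postn to 0.33 for Tgfbi. An unadjusted p below 0.05 was reached by 1930 of the 17131 genes tested and by 1 of the 9 genes. That gene, Tgfbr1, was higher (0.16 ± 0.05, adjusted p = 0.237 in edgeR). DESeq2 passed none of the 9 genes at its adjusted p.

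Cotreated kidneys still differed from vehicle-treated kidneys for 5 of the 9 genes. Tgfb1, Tgfbr1, Tgfbi, and Pdgfrb stayed higher and Postn was lower, where 29.8% of all genes were higher and 29.9% lower. Postn alone was called, against 13.4% of all genes. Whether KW6002 acted differently in cisplatin-treated mice was tested directly as an interaction. It passed for 6 of the 9 genes, namely Tgfb1, Tgfbr1, Tgfbi, Fn1, Fbn1, and Pdgfrb, each with a more negative KW6002 effect in cisplatin-treated mice. In that test 19.9% of all genes were lower and 22.8% higher. Tgfb1, Tgfbi, and Fbn1 were called, 3 of the 9 genes, against 8.58% of all genes.

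**Figure D3:**
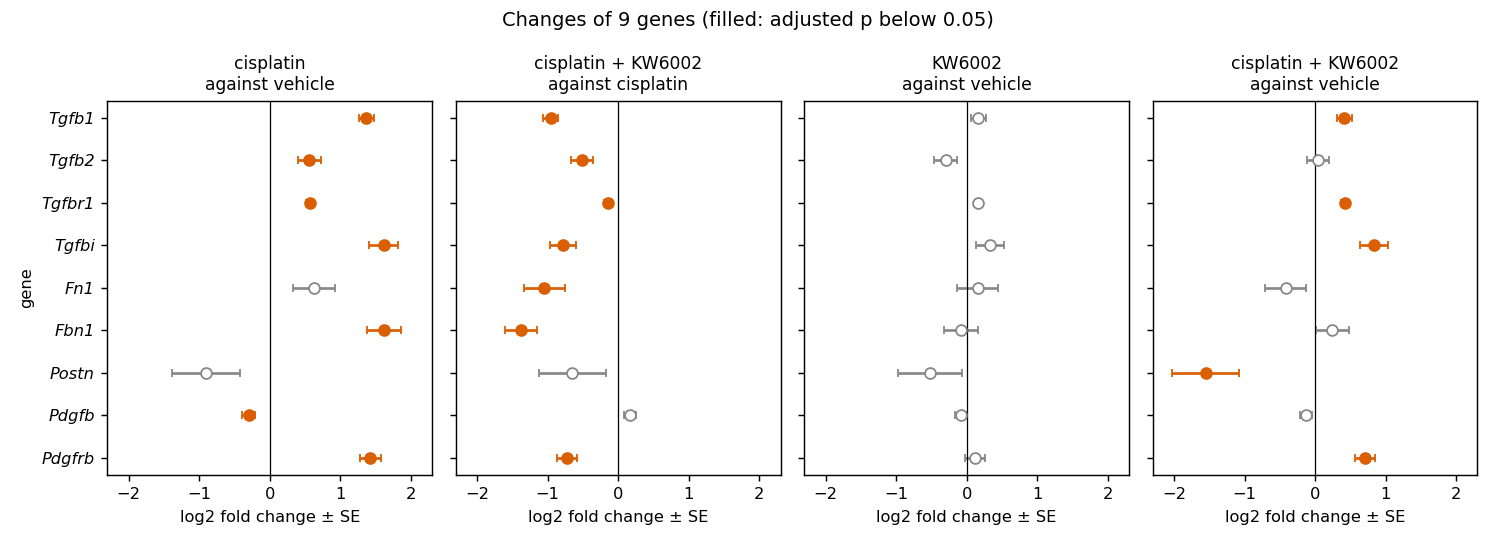
Log2 fold change ± SE of the 9 genes in 4 comparisons, with filled symbols where the adjusted p was below 0.05. The panel for cisplatin has 7 filled symbols, that for KW6002 added to cisplatin has 7, that for KW6002 alone has 0, and that for cotreated against vehicle-treated kidneys has 5.

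Of the ligands, Tgfb1 rose most. Its level was 13.1, 10.0, 10.3, 11.4, and 12.9 CPM in the 5 vehicle libraries and 37.0, 28.1, 29.3, 29.2, and 25.6 CPM in the 5 cisplatin libraries. KW6002 libraries lay between 10.8 and 14.3 CPM (median 13.8), and cotreated libraries between 13.2 and 17.1 CPM (median 15.6). Every cisplatin library was therefore above every library of the other 3 groups, and the cotreated group was above the vehicle group without overlap. The rise with cisplatin was 1.37 ± 0.11 log2 units, or 2.58-fold (adjusted p = 1.37e-10). With KW6002 the cisplatin level changed by -0.96 ± 0.10 (adjusted p = 4.84e-08). A difference of 0.41 ± 0.11 from vehicle remained (adjusted p = 0.00192), and the interaction was -1.12 ± 0.15 (adjusted p = 2.60e-06). Within the 500s the cisplatin effect was 1.29 ± 0.13.

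Tgfb2 had the lowest mean of the 9 genes in 3 of the 4 groups per length of transcript. In each of those 3 groups its range overlapped that of Postn. It measured 2.98, 2.21, 2.05, 1.73, and 2.64 CPM with vehicle and 3.62, 3.39, 3.17, 3.77, and 3.14 CPM with cisplatin. Cotreated libraries ranged from 1.76 to 3.10 CPM (median 2.36), just under the lowest cisplatin library, and KW6002 libraries from 1.58 to 2.303 CPM (median 1.78). The rise was 0.56 ± 0.16 (adjusted p = 0.00408) and the fall with KW6002 was -0.52 ± 0.15 (adjusted p = 0.00647). The cotreated and vehicle groups overlapped and differed by 0.04 ± 0.16. With the fat marker mean as a covariate the fall was -0.32 ± 0.16 and no longer passed (adjusted p = 0.106), while without the 3 libraries of highest fat marker mean it was -0.51 ± 0.15 (adjusted p = 0.00545). The interaction for Tgfb2 was -0.22 ± 0.22 (adjusted p = 0.459).

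Pdgfb, a PDGF ligand, was the only one of the 9 genes that fell with cisplatin. It measured 26.6, 23.0, 22.9, 22.2, and 25.3 CPM with vehicle and 20.2, 18.8, 20.3, 20.4, and 18.04 CPM with cisplatin, without overlap. The difference was small, at -0.30 ± 0.09 (adjusted p = 0.00694). KW6002 libraries lay between 18.9 and 27.1 CPM (median 23.1) and cotreated libraries between 17.7 and 25.5 CPM (median 22.1), which spanned the cisplatin range. KW6002 changed the cisplatin level by 0.17 ± 0.09 (adjusted p = 0.118). The fall was sensitive to scaling. With library size alone it was -0.08 ± 0.10 (adjusted p = 0.485), a setting in which the median of all genes moved to 0.20, and with the label series as a covariate it was -0.21 ± 0.10 (adjusted p = 0.0691). Within the 500s it was -0.28 ± 0.11 (adjusted p = 0.0381). Platelet markers summed to 9.44 to 12.4 CPM with vehicle and 9.92 to 11.7 with cisplatin. Most of that sum was Itga2b (means 9.06 and 9.16 CPM), and only 2 of the 4 markers had enough counts to be tested. Of 5 endothelial markers, 2 rose and 1 fell with cisplatin, where 34.6% of all genes rose and 35.9% fell.

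Tgfbr1, the type I TGF-beta receptor, had the tightest replicates of the 9 genes. It measured 86.2, 86.8, 89.9, 83.9, and 82.4 CPM with vehicle and 132.8, 128.3, 126.5, 126.4, and 123.7 CPM with cisplatin. KW6002 libraries ranged from 88.0 to 104.4 CPM (median 96.7), and cotreated libraries from 101.8 to 125.5 CPM (median 113.6). The cisplatin and cotreated ranges overlapped, and both were clear of vehicle. The rise was 0.57 ± 0.05 (adjusted p = 2.00e-09) and the fall with KW6002 only -0.15 ± 0.05 (adjusted p = 0.0142). Cotreated kidneys remained 0.42 ± 0.05 above vehicle (adjusted p = 3.25e-07). Without a filter on low counts the fall just missed the threshold (adjusted p = 0.052). The interaction was -0.32 ± 0.07 (adjusted p = 0.00117).

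Pdgfrb (ENSMUSG00000024620, chr18:61045150-61085061, + strand), the receptor for PDGF-B, rose with cisplatin, whereas Pdgfb fell, with the limits given above. Levels were 64.2, 34.1, 41.9, 52.4, and 58.9 CPM with vehicle and 165.0, 144.0, 131.2, 126.9, and 109.1 CPM with cisplatin. Cotreated libraries lay between 66.8 and 97.2 CPM (median 83.3), above all vehicle and below all cisplatin libraries, while KW6002 libraries lay between 41.5 and 67.5 CPM (median 54.3). The rise was 1.43 ± 0.15, or 2.69-fold (adjusted p = 1.19e-08), and the change with KW6002 was -0.72 ± 0.14 (adjusted p = 0.000119). Cotreated kidneys stayed 0.70 ± 0.14 above vehicle (adjusted p = 0.00019). The interaction was -0.84 ± 0.20 (adjusted p = 0.00158). Within the 500s the rise was 1.28 ± 0.18. Of 6 smooth muscle and pericyte markers, 3 rose and 1 fell with cisplatin, the last being Rgs5 (-0.42 ± 0.06), a pericyte gene.

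Fbn1 encodes fibrillin-1, the backbone of microfibrils, which also tether latent TGF-beta. It measured 32.0, 33.6, 12.7, 23.0, and 19.6 CPM with vehicle and 92.5, 72.5, 68.1, 63.2, and 75.0 CPM with cisplatin. KW6002 libraries ranged from 15.0 to 37.0 CPM (median 20.1) and cotreated libraries from 21.9 to 39.3 CPM (median 26.1), so that cisplatin libraries stood above the other 3 groups. The rise was 1.62 ± 0.25, or 3.07-fold (adjusted p = 3.75e-06). The fall with KW6002, -1.38 ± 0.23 (adjusted p = 2.44e-05), was the largest of the 9 genes. Cotreated and vehicle kidneys differed by 0.24 ± 0.24 (adjusted p = 0.388). That difference was 0.63 ± 0.22 (adjusted p = 0.0188) without the 3 libraries of highest fat marker mean and 0.74 ± 0.25 (adjusted p = 0.016) with the marker mean as a covariate. The interaction was -1.30 ± 0.33 (adjusted p = 0.00302).

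Tgfbi encodes an adhesive matrix protein that TGF-beta is known to induce. Vehicle libraries measured 31.3, 21.1, 16.2, 17.8, and 13.9 CPM and cisplatin libraries 65.6, 53.9, 57.5, 60.1, and 69.4 CPM. Cotreated libraries lay between 27.9 and 46.7 CPM (median 35.0), below all cisplatin libraries but overlapping vehicle replicate 1. KW6002 libraries ranged from 16.7 to 34.8 CPM (median 24.2). The rise was 1.61 ± 0.20, or 3.06-fold (adjusted p = 2.62e-07), and the fall with KW6002 was -0.78 ± 0.19 (adjusted p = 0.00117). A difference of 0.83 ± 0.20 from vehicle remained (adjusted p = 0.000936), and the interaction was -1.12 ± 0.27 (adjusted p = 0.00211). Within the 500s the rise was 1.95 ± 0.18.

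Fn1 encodes fibronectin, a scaffold for collagen assembly, and it spread widely among vehicle libraries. Vehicle libraries measured 92.7, 83.4, 31.5, 51.5, and 57.2 CPM and cisplatin libraries 131.1, 84.2, 87.8, 88.3, and 97.3 CPM. The groups overlapped, since vehicle replicate 1 lay inside the cisplatin range, and vehicle replicate 2 was just under it. The difference of 0.63 ± 0.30 did not pass (adjusted p = 0.0679). It passed without the 3 libraries of highest fat marker mean, which include both of those vehicle replicates (1.06 ± 0.32, adjusted p = 0.00681), and with the fat marker mean as a covariate (0.76 ± 0.24, adjusted p = 0.00746). It also passed within the 500s (0.84 ± 0.34, adjusted p = 0.0392), and without vehicle replicate 1 (0.81 ± 0.32, adjusted p = 0.0279) or 2 (0.74 ± 0.32, adjusted p = 0.0455). It did not pass with DESeq2 (0.64 ± 0.34, adjusted p = 0.106) or with the label series as a covariate (0.64 ± 0.37, adjusted p = 0.125). With library size alone it was 0.85 ± 0.31 (adjusted p = 0.0177), where the median of all genes was 0.20.

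In cotreated libraries Fn1 ranged from 32.3 to 76.3 CPM (median 41.6), below every cisplatin library, and in KW6002 libraries from 41.7 to 125.7 CPM (median 53.3). The fall with KW6002 was -1.05 ± 0.29 (adjusted p = 0.00375), and the interaction was -1.20 ± 0.41 (adjusted p = 0.0214). With the fat marker mean as a covariate the fall was -0.56 ± 0.27 (adjusted p = 0.0900), and without the 3 libraries of highest fat marker mean it was -1.04 ± 0.26 (adjusted p = 0.00175). Cotreated and vehicle kidneys differed by -0.42 ± 0.29 (adjusted p = 0.22), by 0.02 ± 0.31 without the 3 libraries of highest fat marker mean, and by 0.20 ± 0.28 with the covariate.

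Postn encodes periostin, a matricellular protein of activated fibroblasts, and it did not pass with cisplatin. Vehicle libraries measured 11.2, 22.7, 3.29, 6.83, and 4.78 CPM, a 6.89-fold spread between the highest and the lowest. Cisplatin libraries measured 4.90, 5.17, 4.48, 4.68, and 6.77 CPM and lay inside the vehicle range. KW6002 libraries ranged from 2.48 to 15.8 CPM (median 5.68) and cotreated libraries from 1.51 to 7.77 CPM (median 2.65). The differences were -0.90 ± 0.48 for cisplatin against vehicle (adjusted p = 0.0986) and -0.65 ± 0.47 for KW6002 added to cisplatin (adjusted p = 0.25). The first passed without vehicle replicate 3 (-1.12 ± 0.47, adjusted p = 0.0403), and the second without cotreated replicate 1, its group's highest library (-1.10 ± 0.46, adjusted p = 0.0498). Over all libraries the cotreated group was lower than vehicle, with a difference of -1.55 ± 0.47 (adjusted p = 0.00696), and those groups overlapped.

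The libraries with the most Postn were vehicle replicate 2 and KW6002 replicate 1, which were 2 of the 3 libraries with the highest fat marker mean. Cotreated replicate 2 had the least Postn and the lowest fat marker mean. Without those 3 fat-rich libraries the cotreated-to-vehicle difference was -0.59 ± 0.38 (adjusted p = 0.199), and the cisplatin-to-vehicle difference was 0.06 ± 0.39 (adjusted p = 0.892). The effect of KW6002 added to cisplatin was then -0.65 ± 0.32 (adjusted p = 0.0926). With the marker mean as a covariate the cotreated-to-vehicle difference was -0.14 ± 0.33 (adjusted p = 0.752), the cisplatin-to-vehicle difference -0.45 ± 0.27 (adjusted p = 0.146), and the effect of KW6002 added to cisplatin 0.31 ± 0.30 (adjusted p = 0.424). The cotreated-to-vehicle difference was -0.98 ± 0.44 (adjusted p = 0.0617) without vehicle replicate 2 alone and -0.81 ± 0.40 (adjusted p = 0.102) within the 500s. With the label series as a covariate that same difference was -1.04 ± 0.53 (adjusted p = 0.103).

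**Figure D4:**
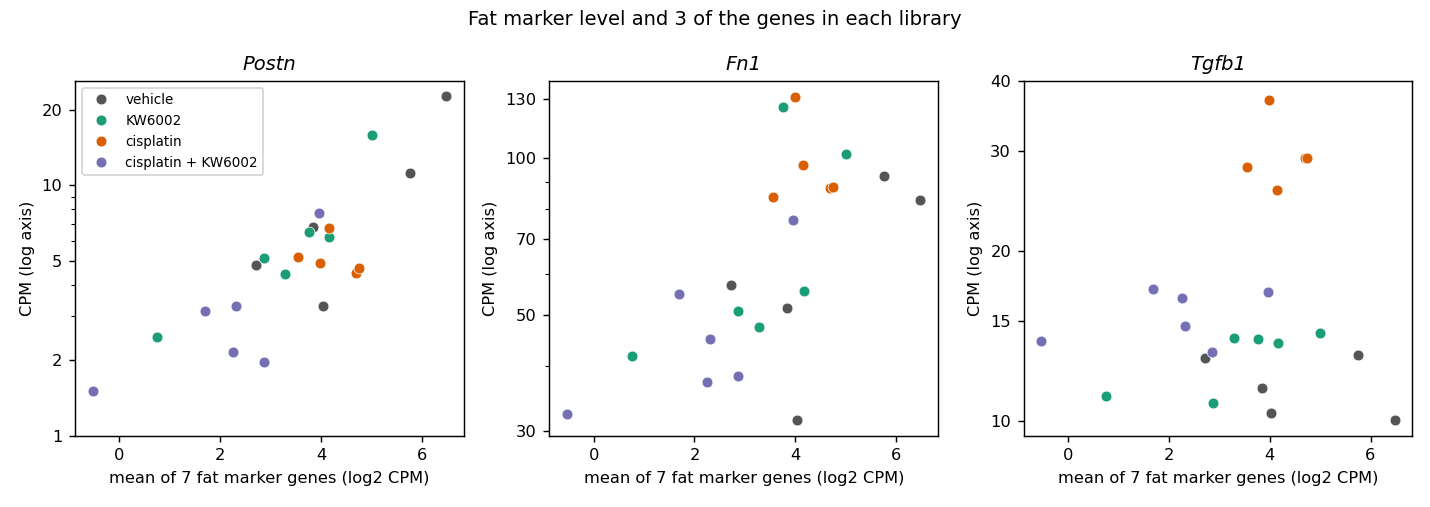
CPM (log axes) of Postn, Fn1, and Tgfb1 in each library plotted against the mean log2 CPM of 7 fat marker genes, colored by group. Postn was highest, at 22.7 CPM, where the fat marker mean was highest, at 6.48, and lowest, at 1.51 CPM, where it was lowest, at -0.53, whereas Tgfb1 was highest in the 5 cisplatin libraries, which had fat marker means of 3.55 to 4.75, and overlapped between KW6002 libraries and both other groups.

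Compared per kilobase of exon, the order of the genes changed with cisplatin. In vehicle kidneys Tgfbr1 led with 13.1 ± 0.44 CPM per kb (SD, n = 5), ahead of Pdgfrb with 9.18 ± 2.24 CPM per kb. Pdgfb (5.76 ± 0.45), Fn1 (5.41 ± 2.12), and Tgfbi (5.31 ± 1.80) followed with overlapping ranges. Tgfb1 (2.29 ± 0.28), Fbn1 (1.99 ± 0.72), and Postn (1.12 ± 0.90) also overlapped as neighbors. Tgfb2 had the lowest mean, 0.401 ± 0.085 CPM per kb, and its range overlapped that of Postn. In cisplatin kidneys Pdgfrb headed the order with 24.7 ± 3.80 CPM per kb, but its range overlapped that of Tgfbr1 (19.5 ± 0.51). Tgfbi (16.3 ± 1.65) was clear of Fn1 (8.36 ± 1.65) below it. Fbn1 (6.12 ± 0.92) and Tgfb1 (5.92 ± 0.85) overlapped, and Pdgfb dropped to seventh place with 4.70 ± 0.26 CPM per kb. Postn (0.598 ± 0.105) and Tgfb2 (0.591 ± 0.048) were last and could not be separated. In KW6002 kidneys the order differed from vehicle only among Tgfbi, Fn1, and Pdgfb, whose ranges overlapped. In cotreated kidneys Tgfbr1 led again with 17.6 ± 1.38 CPM per kb, followed by Pdgfrb with 15.0 ± 1.88 CPM per kb, with overlapping ranges.

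The 2 genes whose profile over the 22 libraries was nearest to each of the 9 were found by the root mean square (RMS) difference of centered log2 CPM. Nearest to Tgfb1 were Axl (RMS difference 0.147), a receptor tyrosine kinase, and Ppp1r18 (0.153), against a spread of 0.533 for Tgfb1 itself. Nearest to Pdgfrb were Serping1 (0.153) and Tpm1 (0.166), which encode the C1 inhibitor of complement and a tropomyosin. Fbn1 lay nearest to Adamts2 (0.248), the procollagen N-proteinase, and Ctsk (0.255), the protease cathepsin K. Postn lay nearest to Fndc1 (0.327) and Lum (0.363), the latter a collagen-binding proteoglycan. Tgfbi lay nearest to Il1rl2 (0.184) and Cygb (0.238), Fn1 to Fam111a (0.299) and Islr (0.308), and Tgfb2 to Vegfd (0.209) and C1ra (0.211). Tgfbr1 lay nearest to Rap1b (0.0778) and Slc44a1 (0.0797). For Pdgfb the nearest genes, Gtf3c5 (0.121) and Psip1 (0.123), were little nearer than its own spread of 0.171.

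The genes around the ligands were read from lists that include the members of this family and share some genes. For all lists the background was 34.6% of all genes tested higher and 35.9% lower with cisplatin. With KW6002 added to cisplatin it was 28.6% higher and 27.2% lower. Of 12 genes of TGF-beta ligands and their activation, 9 rose with cisplatin and 2 fell, and 9 fell and 1 rose when KW6002 was added. The median log2 fold changes were 0.79 and -0.69. Lrrc32 (GARP), which holds latent TGF-beta at the cell surface, rose from 20.4 ± 4.41 CPM with vehicle to 48.1 ± 11.1 CPM with cisplatin (1.24 ± 0.15, adjusted p = 8.64e-08). Tgfb3, the ligand not among the 9 genes, fell by 1.22 ± 0.18 with KW6002 (adjusted p = 5.26e-06). Itgb8, an integrin subunit that activates latent TGF-beta, went the other way. It fell from 257.7 ± 55.4 to 112.4 ± 11.2 CPM with cisplatin (-1.20 ± 0.12, adjusted p = 6.84e-09) and was 0.60 ± 0.11 higher with KW6002 (adjusted p = 0.000131). Ltbp4, a latent TGF-beta binding protein, also fell with cisplatin (-0.34 ± 0.11).

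All 5 TGF-beta receptor genes rose with cisplatin. All 5 were also higher in cotreated than in vehicle kidneys, where 29.8% of all genes tested were higher. Of these 5 receptor genes, 4 fell when KW6002 was added. The coreceptor Eng (endoglin) rose from 113.3 ± 16.4 to 239.4 ± 47.3 CPM (1.08 ± 0.12, adjusted p = 5.39e-08) and fell by 0.78 ± 0.12 with KW6002. Among 9 SMADs and SMAD inhibitors, 6 rose and 1 fell with cisplatin, and 1 rose and 5 fell with KW6002, with median log2 fold changes of 0.25 and -0.20. Smurf1, a ubiquitin ligase that targets SMADs, rose by 0.83 ± 0.06 (adjusted p = 2.87e-11), whereas its relative Smurf2 fell by 0.39 ± 0.04 (adjusted p = 3.63e-08). Smad3, which carries the TGF-beta signal to the nucleus, fell by 0.44 ± 0.09 with KW6002 (adjusted p = 0.000225), and the corepressor Ski rose by 0.17 ± 0.05 (adjusted p = 0.00994).

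Of 13 TGF-beta target genes, 11 rose and none fell with cisplatin, and 10 fell and none rose with KW6002. Fn1 and Smad7, the inhibitory SMAD, were those that did not pass with cisplatin. The median log2 fold changes were 1.22 and -0.81. The contractile genes Tagln (-0.43 ± 0.18, adjusted p = 0.0544) and Acta2 (-0.23 ± 0.18, adjusted p = 0.298) did not pass with KW6002. Neither did Cdkn2b (-0.52 ± 0.23, adjusted p = 0.0538).

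Of 6 genes for PDGF ligands and receptors, 3 rose with cisplatin (Pdgfa, Pdgfra, and Pdgfrb) and 2 fell (Pdgfb and Pdgfc), while KW6002 lowered 4 and raised none. Pdgfra, the receptor that marks fibroblasts, rose from 44.2 ± 12.8 to 138.8 ± 16.3 CPM (1.65 ± 0.16, adjusted p = 2.54e-09). It fell to 71.1 ± 11.3 CPM in cotreated kidneys (-0.96 ± 0.14, adjusted p = 6.55e-06). Pdgfc fell by 0.36 ± 0.11 with cisplatin (adjusted p = 0.00468).

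Matrix genes made up the remaining lists. Of 12 microfibril and elastic fiber genes, 8 rose and none fell with cisplatin, and 11 fell with KW6002. Emilin1, an elastic fiber glycoprotein, rose by 1.81 ± 0.12 (adjusted p = 1.09e-11), and Fbln2 fell by 1.02 ± 0.25 with KW6002 (adjusted p = 0.00140) without having risen with cisplatin (0.07 ± 0.26). Of 11 fibronectin and matricellular genes, 8 rose with cisplatin and 10 fell with KW6002, and none moved the opposite way. Spp1 (osteopontin), which injured tubules are also known to make, rose from 783.4 ± 45.0 to 11740 ± 676.6 CPM (3.91 ± 0.09, adjusted p = 1.31e-19). The matricellular gene Ccn1 rose by 3.32 ± 0.26 and fell by 1.73 ± 0.23 with KW6002 (adjusted p = 1.30e-06). Thbs2 (0.23 ± 0.21, adjusted p = 0.329), like Fn1 and Postn, did not pass with cisplatin.

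Of 11 genes of activated fibroblasts, 8 rose and 1 fell with cisplatin, and 6 fell and none rose with KW6002. Timp1, which encodes an inhibitor of matrix metalloproteinases, rose from 0.518 ± 0.185 to 35.0 ± 7.01 CPM (6.05 ± 0.37, adjusted p = 1.73e-12). Lox, which encodes a collagen-crosslinking enzyme, rose from 6.33 ± 1.95 to 69.3 ± 15.3 CPM and was at 13.3 ± 5.18 CPM in cotreated kidneys (-2.39 ± 0.26 against cisplatin, adjusted p = 8.79e-08). Fap, the fibroblast activation protein, fell by 0.69 ± 0.30 with cisplatin (adjusted p = 0.0475). Its levels were low, at 1.04 ± 0.62 CPM with vehicle and 0.638 ± 0.114 CPM with cisplatin. The cisplatin range of 0.527 to 0.821 CPM lay inside the vehicle range of 0.488 to 1.76 CPM. Vim (0.04 ± 0.21, adjusted p = 0.880) and S100a4 (0.57 ± 0.33, adjusted p = 0.125), which are often used as fibroblast markers, did not pass. In these lists Acta2 and Tagln are also smooth muscle genes, and Col1a1 and Col3a1 are also counted among the fibroblast markers.

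**Figure D5:**
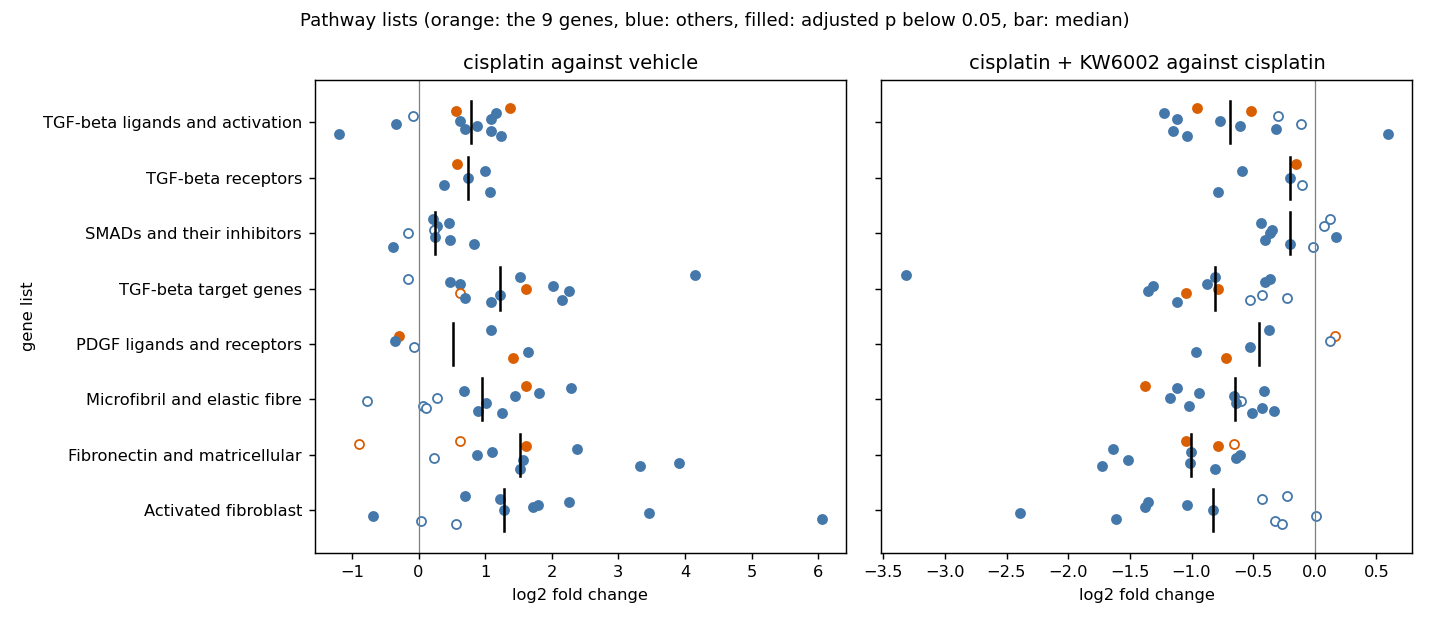
Log2 fold change of every gene in 8 lists for cisplatin against vehicle (left) and for KW6002 added to cisplatin (right), with filled symbols where the adjusted p was below 0.05, the 9 genes in orange, and a bar at each list's median. All 8 medians lie above 0 on the left, between 0.25 and 1.53, and below 0 on the right.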

How the data were processed

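Kidney poly(A) RNA of 22 mice was sequenced by the authors from stranded libraries, mapped to mm10 with STAR, and counted per Ensembl gene with HTSeq-count 0.6.1p1 in union mode. The deposited values are counts, whole numbers of reads per gene, which the authors did not normalize. Whether strand was used in counting is not given in the sources used here. Another 66 columns held no name or value and were not used. Groups came from the sample titles. Symbols, positions, and exon lengths were taken from GENCODE M21, and promoters from RefSeq.

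Counts were analyzed with edgeR 4.0.16 in R 4.3.3 (TMM, filterByExpr with 10 counts at the median library size, 1 mean per group over 22 libraries, no covariate, quasi-likelihood F test, Benjamini-Hochberg), and tested on simulated data. Totals of 26471762 to 40510754 counts set the precision. The 9 genes, the gene and marker lists, and the naming rule were chosen with earlier results of these data known. Named beyond the 9 were, per list, the genes of largest significant rise and fall above an average log2 CPM of 1, plus a few chosen after their values were seen (Ltbp4, Smad7, Tagln, Acta2, Pdgfa, Thbs2, Fap, Vim, S100a4, and Rgs5). A gene that this rule chose is not reported here. Log2 CPM for profiles used a prior count of 2. Alternatives were DESeq2 1.42.0, other scalings and filters, the 2 groups alone, a replicate block, the label series, only mice of the 500s, the fat marker mean, and each library left out. Leaving out the 3 fat-rich libraries was added after seeing the data.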

Additional observations from a re-analysis of the deposited data

Results flagged for a closer look

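In 6 of the 9 genes the effect of KW6002 differed between cisplatin-treated and untreated mice by the interaction test. The differences on the log2 scale were -1.12 for Tgfb1, -0.32 for Tgfbr1, -1.12 for Tgfbi, -1.20 for Fn1, -1.30 for Fbn1, and -0.84 for Pdgfrb. They passed in each of the alternative fits.

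Among 36 sets of values (9 genes in 4 groups), 3 held a sample far from the others, where chance flags about 1 set in 20. Fn1 was high in cisplatin replicate 1 (131.1 CPM, against 84.2 to 97.3 in the other 4 libraries). Postn was high in KW6002 replicate 1 (15.8 CPM) and in cotreated replicate 1 (7.77 CPM). Those last 2 libraries had the highest fat marker mean of their groups, at 5.00 and 3.96 log2 CPM.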

How the results depend on the processing

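For cisplatin against vehicle 6 to 8 of the 9 genes passed over all settings, and for KW6002 added to cisplatin 5 to 8 did. For cotreated against vehicle kidneys 4 or 5 passed, for the interaction 6 or 7, and for KW6002 alone 0 throughout. Called genes for KW6002 added to cisplatin numbered 0 with the fat marker mean as a covariate and 1 to 3 with a library left out (1 without cisplatin replicate 1 and without cotreated replicates 2, 3, or 6), against 2. For cotreated against vehicle kidneys they numbered 0 with library size alone and with only the 2 groups fitted and 0 to 1 with a library left out (0 without vehicle replicate 2 and without cotreated replicates 2, 3, 4, 5, or 6), against 1. Tgfbi was called there in place of Postn within the 500s (1.17), with the label series (1.24) or the fat marker mean (1.08) as a covariate, and without the 3 fat-rich libraries (1.16). The interaction has no fit of only 2 groups. Signs reversed only for differences that did not pass. Library size alone gave 0.0274 for Pdgfb in cotreated against vehicle kidneys, where the median of all genes moved to 0.155, so that Pdgfb stayed below that median. The 500s alone gave 0.0575 for Fbn1 and -0.0473 for Pdgfrb with KW6002 alone. The fat marker covariate gave 0.31 for Postn with KW6002 added to cisplatin, 0.15 for Fbn1 and 0.21 for Postn with KW6002 alone, 0.20 for Fn1 in cotreated against vehicle kidneys, and 0.10 for Postn in the interaction. Leaving out the 3 fat-rich libraries gave 0.0632 for Postn with cisplatin, 0.11 for Fbn1 with KW6002 alone, and 0.017 for Fn1 in cotreated against vehicle kidneys. With 1 library left out, KW6002 alone gave -0.086 to 0.34 for Fn1, -0.28 to 0.0644 for Fbn1, and -0.98 to 0.054 for Postn. Cotreated against vehicle kidneys then gave -0.048 to 0.15 for Tgfb2, and the interaction -0.71 to 0.33 for Postn. The cause was not tested. Replicate numbers were not treated as pairs. Of 31 same-numbered pairs, 7 correlated above 0.1 (range -0.18 to 0.41). Pairs of different numbers were not compared, so these values cannot settle whether the numbers pair the samples. With a replicate block 8 of the 9 genes passed for cisplatin against vehicle, Fn1 being the one added (0.66, adjusted p = 0.0136), and 7, 0, 5, and 6 in the other comparisons. Tgfb2 had 43 to 141 counts per library and Postn 48 to 566.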
